A study of Mus musculus with 14 samples.

Results

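The report concerns 7 genes of resting CD8+ T cells, Igfbp4, Fam211b, Acvrl1, Txk, Actn1, Nsg2 and Dapl1, among 10106 genes with values. They were chosen by name, and some of them were chosen from their low values after antigen in these same libraries, so their differences from the untreated state are a description with no test. All 7 passed the filter of a mean RPKM (a read density per gene length and library size) of at least 1 over all libraries, as did 9793 genes in all. Acvrl1 passed it through the Naive libraries, since its mean was under 1 RPKM in every antigen group. As a name for all 7, loss from the naive state goes against the values: Dapl1 was higher after antigen in 3 of 4 groups with no overlap, and Nsg2 stayed near its Naive level.

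Polyadenylated RNA was sequenced from mouse OT-I cells, CD8+ T cells whose transgenic receptor recognises the ovalbumin peptide SIINFEKL. Donors of the OTI strain were 8 to 12 weeks old, per the labels, and cells enriched with magnetic beads were stained with CFSE and transferred on day 0 into CD45.2+ C57BL/6 recipients. Antigen was injected intravenously on day 1, at 223 pmol, and on day 4 the OT-I cells were sorted from spleen by CD3e, CD8 and CD45.1. The 5 groups were Naive (saline, 3 libraries), whole ovalbumin (OVA, 3), the same protein carrying ERY1, a peptide that binds erythrocytes (ERY1-OVA, 3), free SIINFEKL (2) and SIINFEKL on TER119, which also binds erythrocytes (TER119-SIINFEKL, 3). Thus all groups share the transgenic receptor, the transfer and the sort, and recipients keep their own lymphocytes, which the gate leaves out. The series counts mice per group, but no label ties a library to 1 mouse, so p-values measure the spread between libraries.

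Naive T cells circulate in a resting state held by factors such as FOXO, KLF and TCF family proteins, and antigen drives them out of it into division and effector or tolerant states. Antigen carried on erythrocytes is cleared with ageing red cells and is presented in a tolerogenic way. Of the 7 genes, Igfbp4 encodes a secreted protein that binds insulin-like growth factors, and Acvrl1 encodes ALK1, a receptor kinase of the TGF-beta and BMP family best known in endothelium. Txk is a Tec family tyrosine kinase that acts below the T cell receptor, and Actn1 is alpha-actinin, which crosslinks actin filaments and links them to integrins. Dapl1 is a small relative of the death-associated protein Dap, Nsg2 belongs to a family of vesicle proteins known from neurons, and Fam211b, also named Lrrc75b, encodes a leucine-rich repeat protein.

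On GRCm38 all 7 are protein-coding genes. Igfbp4 lies at chr11:99041244-99054392 and Nsg2 at chr11:32000463-32059202, both on the plus strand. Fam211b lies at chr10:75550123-75560330 on the minus strand, Acvrl1 at chr15:101128522-101145336 on the plus strand and Dapl1 at chr2:59484653-59505020 on the plus strand. Actn1 (chr12:80167547-80260371) and Txk (chr5:72695978-72752777) are on the minus strand. Dapl1 is the shortest in exon sequence, with 679 bases, and the other 6 have 4157 to 10955.

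Promoter sequence from RefSeq (GRCm38.p6) was matched by symbol for 5 of the 7 genes, in 7 windows. Shown are 3 of them, each the 250 bases before an annotated start, because these genes differ most in how they responded: Igfbp4 had the widest range, Dapl1 was higher after antigen and Txk was lower. They lie at chr11:99040994-99041243 (plus strand), chr2:59484403-59484652 (plus strand) and chr5:72752778-72753027 (minus strand). Each is written 5′ to 3′ along its gene, and capitals mark a motif match.
Igfbp4: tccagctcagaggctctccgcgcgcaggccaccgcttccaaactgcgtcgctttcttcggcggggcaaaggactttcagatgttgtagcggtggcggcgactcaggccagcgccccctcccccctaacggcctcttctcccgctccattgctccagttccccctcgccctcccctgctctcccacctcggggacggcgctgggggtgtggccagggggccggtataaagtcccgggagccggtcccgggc
Dapl1: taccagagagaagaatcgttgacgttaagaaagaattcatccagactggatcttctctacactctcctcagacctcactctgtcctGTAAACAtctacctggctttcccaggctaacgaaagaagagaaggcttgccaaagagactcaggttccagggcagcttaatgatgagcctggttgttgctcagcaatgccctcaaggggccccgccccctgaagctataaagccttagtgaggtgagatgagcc
Txk: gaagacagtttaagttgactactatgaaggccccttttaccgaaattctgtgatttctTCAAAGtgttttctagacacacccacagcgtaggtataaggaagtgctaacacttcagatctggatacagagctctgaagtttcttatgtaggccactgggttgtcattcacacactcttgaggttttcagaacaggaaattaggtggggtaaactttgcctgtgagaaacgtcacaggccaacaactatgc
The Dapl1 window holds the FOXO motif GTAAACA at positions -164 to -158 from the start, which occurs in 3.17% of 32544 promoter windows of that length. The Txk window holds the TCF/LEF motif CTTTGA on the opposite strand at -192 to -187, present in 13.88% of windows. In Igfbp4 none of the 7 motifs searched on both strands was matched. The other motifs were RUNX TGTGGT (13.96% of windows), ETS CCGGAA (12.1%), KLF CCACCC (28.1%), E protein CAGCTG (13.05%) and NFAT TGGAAA (18.6%). The Actn1 window had no match, the Nsg2 windows had 1 NFAT and 1 KLF match, and a second Txk window had 1 RUNX match. No window held more than 1 match, so none overlapped another, and a match is a description of letters only.

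The libraries carried CD8+ T cell RNA: the summed level of 7 CD8 T cell markers with values was 3041 to 3500 RPKM in Naive, 2118 to 2871 after TER119-SIINFEKL and between 2271 and 3069 in the other groups. The proliferation gene Mki67, named after its values were seen, sets 1 library apart. It was 1.48 to 2.35 RPKM in Naive, 21.2 in SIINFEKL replicate 1, 2.89 in SIINFEKL replicate 2 and 29.2 to 91.2 in the other antigen libraries. Values without 1 of the 2 SIINFEKL libraries are given where a call or a size turned on it. Libraries also varied in how gene levels depend on gene length: Spearman rho across genes between exon length and the deviation from the group mean ran from -0.47 (OVA replicate 1) to 0.49 (TER119-SIINFEKL replicate 2). In bulk RNA, fewer cells that express a gene and less RNA per cell cannot be told apart.

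**Figure D1:**
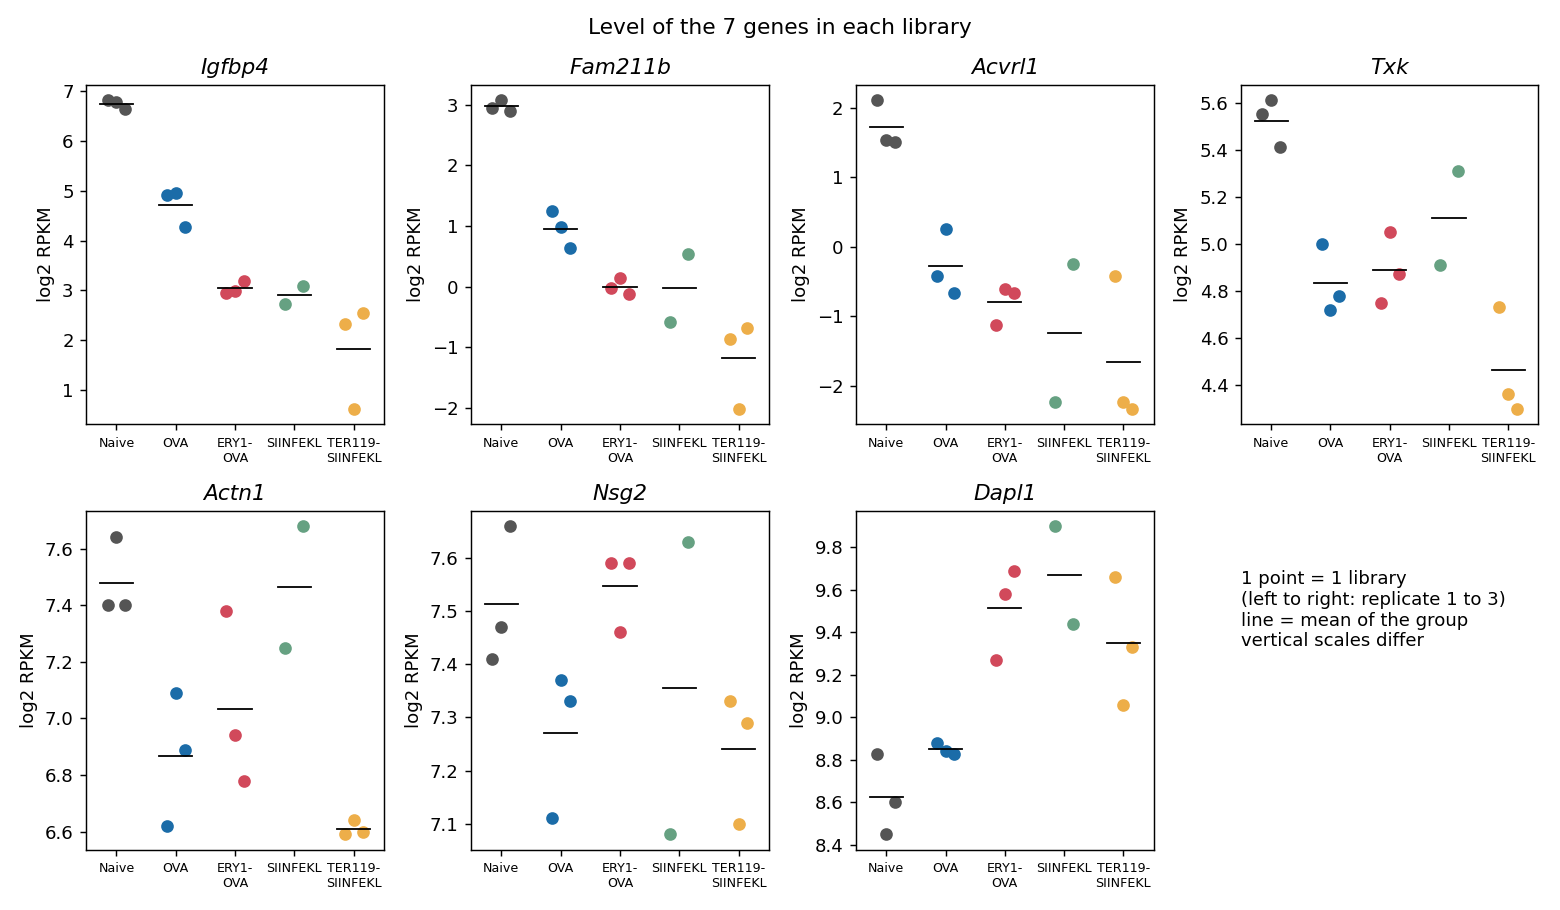
Level of each of the 7 genes as log2 RPKM (vertical axes, scales differ) in the 14 libraries by group (horizontal axes), with lines for group means. Igfbp4, Fam211b and Acvrl1 step down from Naive to TER119-SIINFEKL, Txk and Actn1 are lowest after TER119-SIINFEKL, Nsg2 overlaps across most groups, and Dapl1 is lowest in Naive.

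Igfbp4 showed the widest range of the 7. Its Naive libraries were at 112, 109 and 99.5 RPKM, OVA at 30.1, 30.9 and 19.4, and ERY1-OVA at 7.75, 7.97 and 9.04. SIINFEKL libraries were at 6.61 and 8.52 RPKM, and TER119-SIINFEKL at 4.98, 1.54 and 5.82. Every antigen library was below every Naive library, and all 3 TER119-SIINFEKL libraries were below all others. Relative to Naive, the log2 difference was -2.03 ± 0.36 (SE, 3 against 3 libraries) after OVA, -3.70 ± 0.36 after ERY1-OVA, -3.83 ± 0.41 (2 against 3) after SIINFEKL and -4.91 ± 0.36 after TER119-SIINFEKL. These correspond to levels 4.08-fold, 12.98-fold, 14.2-fold and 30.1-fold lower. Without TER119-SIINFEKL replicate 2, the lowest library, the last difference was -4.31, or 19.8-fold. Counted from the most negative difference among 9793 genes, Igfbp4 ranked 2, 1, 2 and 1 in that order of groups, a placement that its choice already implies.

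Fam211b followed the same order at a lower level. Naive libraries held 7.75, 8.37 and 7.45 RPKM, OVA 2.36, 1.99 and 1.55, and ERY1-OVA 0.983, 1.10 and 0.920. SIINFEKL gave 0.664 and 1.45 RPKM, and TER119-SIINFEKL 0.551, 0.248 and 0.623. All antigen libraries were below Naive, TER119-SIINFEKL was below the rest, and the SIINFEKL pair bracketed ERY1-OVA. The log2 difference from Naive was -2.02 ± 0.34 (SE, n = 3) after OVA, -2.98 ± 0.34 after ERY1-OVA, -3.00 ± 0.38 (n = 2) after SIINFEKL and -4.16 ± 0.34 after TER119-SIINFEKL. With 1 RPKM added before the logarithm, which damps low values, the same differences were -1.59, -2.15, -2.13 and -2.60.

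Acvrl1 was the lowest of the 7 genes in RPKM, and its spread after antigen was wide. Naive libraries were at 4.31, 2.91 and 2.84 RPKM, OVA at 0.749, 1.20 and 0.634, and ERY1-OVA at 0.461, 0.654 and 0.633. SIINFEKL libraries were at 0.212 and 0.842 RPKM, and TER119-SIINFEKL at 0.748, 0.211 and 0.200. No antigen library reached a Naive one, but the 4 antigen groups overlapped each other. Differences from Naive were -1.99 ± 0.54, -2.51 ± 0.54, -2.96 ± 0.60 and -3.38 ± 0.54 (log2, SE) after OVA, ERY1-OVA, SIINFEKL and TER119-SIINFEKL. They shrank to -1.22, -1.45, -1.53 and -1.66 with 1 RPKM added, so the size of this gene's difference rests on how low values are handled. After SIINFEKL it was -1.97 without replicate 1 and -3.96 without replicate 2.

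Txk was lower in every antigen group by smaller steps. Naive libraries held 46.8, 48.8 and 42.5 RPKM, OVA 32.0, 26.3 and 27.4, and ERY1-OVA 27.0, 33.2 and 29.2. SIINFEKL gave 30.1 and 39.6 RPKM and TER119-SIINFEKL 26.6, 20.5 and 19.7. The highest antigen library, SIINFEKL replicate 2, stayed below the lowest Naive library. Differences from Naive were -0.69 ± 0.14, -0.63 ± 0.14, -0.41 ± 0.16 and -1.06 ± 0.14 (log2, SE), in the order OVA, ERY1-OVA, SIINFEKL, TER119-SIINFEKL.

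Actn1 after free peptide stayed near its Naive level. Naive libraries were at 169, 200 and 169 RPKM, and the SIINFEKL libraries, at 152 and 205, overlapped them. OVA was at 98.4, 136 and 119 RPKM, ERY1-OVA at 166, 123 and 110, and TER119-SIINFEKL at 96.5, 100.0 and 97.1. The 3 TER119-SIINFEKL libraries were nearly equal, with an SD of 1.85 RPKM. The log2 difference from Naive was -0.87 ± 0.16 after TER119-SIINFEKL, -0.61 ± 0.16 after OVA, -0.45 ± 0.16 after ERY1-OVA and -0.02 ± 0.18 after SIINFEKL (SE). The last value changed sign between the SIINFEKL libraries, at 0.19 without replicate 1 and -0.23 without replicate 2.

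Nsg2 was high and nearly level throughout. Its values were 170, 177 and 202 RPKM in Naive, 138, 165 and 161 after OVA, and 193, 177 and 192 after ERY1-OVA. They were 135 and 199 RPKM after SIINFEKL and 161, 137 and 157 after TER119-SIINFEKL. Naive overlapped ERY1-OVA and SIINFEKL but not OVA or TER119-SIINFEKL. Differences from Naive ran from -0.27 ± 0.14 (log2, SE) after TER119-SIINFEKL to 0.03 ± 0.14 after ERY1-OVA, and the latter took either sign under other settings (-0.14 to 0.11).

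Dapl1 was the most abundant of the 7 in RPKM and ran the other way. Naive libraries held 456, 350 and 388 RPKM, OVA 471, 459 and 455, and ERY1-OVA 619, 768 and 824. SIINFEKL gave 957 and 695 RPKM and TER119-SIINFEKL 809, 533 and 645. Naive replicate 1 overlapped OVA by less than 1 RPKM, and the other 3 antigen groups were above all Naive libraries. The log2 difference from Naive was 0.22 ± 0.17 after OVA, 0.89 ± 0.17 after ERY1-OVA, 1.04 ± 0.20 after SIINFEKL and 0.72 ± 0.17 after TER119-SIINFEKL (SE). A correction of each library for gene length and GC content gave -0.20, 0.52, 1.17 and 0.32, so the OVA value changed sign. The Dapl1 values thus move with the joint correction, and the parts of length and of GC were not tested apart.

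**Figure D2:**
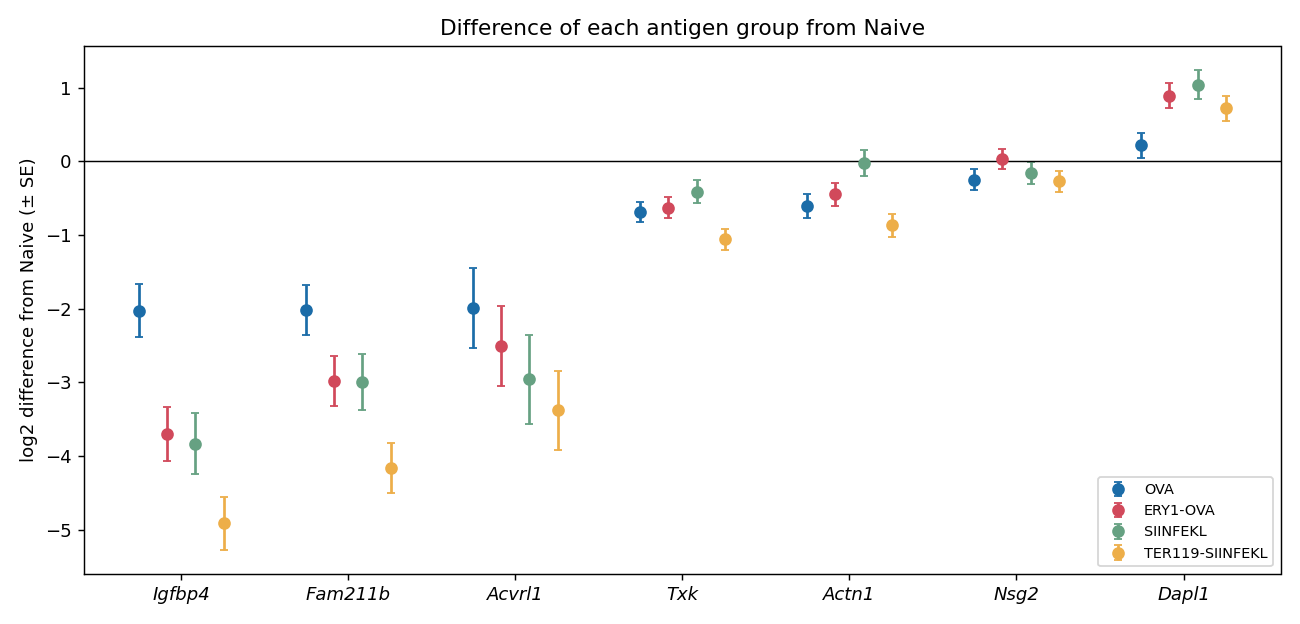
Log2 difference from Naive (vertical axis, points with SE) for the 7 genes (horizontal axis) after each antigen. Igfbp4 reaches -4.91 and Dapl1 1.04; the Dapl1 value after OVA, 0.22, changes sign with a length and GC correction.

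Of the 7 genes, those whose libraries did not overlap Naive numbered 6 after OVA, 6 after ERY1-OVA, 5 after SIINFEKL and 7 after TER119-SIINFEKL. The same was true of 59.8%, 52.5%, 46.2% and 58.0% of all 9793 genes. Across those genes limma called 24.4% higher and 23.1% lower after OVA, 20.9% and 19.0% after ERY1-OVA, 7.58% and 8.34% after SIINFEKL, and 24.6% and 23.0% after TER119-SIINFEKL (Benjamini-Hochberg adjusted p under 0.05). Since the genes were chosen with these differences in view, nothing is read from that count. Moreover the 4 comparisons share the Naive libraries, so a like pattern in each is partly the same measurement.

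The antigen groups could be compared with each other by a test, although their low levels were known when the genes were chosen. The order of mean log2 levels was Naive, OVA, ERY1-OVA, SIINFEKL and TER119-SIINFEKL from highest to lowest for Igfbp4, Fam211b and Acvrl1. In Txk and Actn1 it was Naive, SIINFEKL, ERY1-OVA, OVA and TER119-SIINFEKL. Nsg2 ran ERY1-OVA, Naive, SIINFEKL, OVA and TER119-SIINFEKL, and Dapl1 SIINFEKL, ERY1-OVA, TER119-SIINFEKL, OVA and Naive. For Fam211b SIINFEKL and ERY1-OVA differed by only -0.02 ± 0.38, and their mean RPKM, 1.058 and 1.001, stood in the opposite order. Limma was fitted over all 9793 genes with Benjamini-Hochberg adjustment, and each of the 6 pairs is given in turn.

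After ovalbumin bound to erythrocytes 1 of the 7 genes was lower than after soluble ovalbumin, where 1.06% of all genes were called. Igfbp4 fell by 1.67 ± 0.36 on the log2 scale, or 3.18-fold (ERY1-OVA against OVA, 95% interval -2.46 to -0.89, adjusted p = 0.046), and the 3 libraries of each group did not overlap. The call sits at the threshold. It was lost under 14 of 27 alternatives, among them leaving out any 1 library of Naive, OVA or ERY1-OVA, with adjusted p between 0.0027 and 0.17 over all of them. Fam211b differed by -0.96 ± 0.34 (interval -1.69 to -0.22, adjusted p = 0.17) and Dapl1 by 0.66 ± 0.17 (interval 0.29 to 1.04, adjusted p = 0.079), neither past the threshold. For Txk the interval was -0.25 to 0.37 and for Actn1 -0.19 to 0.52, so a difference beyond those bounds was not seen. At an unadjusted p under 0.05, 3 of the 7 passed.

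After the erythrocyte-bound peptide 3 of the 7 were lower than after free peptide, in a comparison that called 37.4% of all genes. Actn1 fell by 0.85 ± 0.18 (log2, interval -1.25 to -0.46, adjusted p = 0.0029), and its call held under all 27 alternatives. Txk fell by 0.65 ± 0.16 (interval -0.99 to -0.30, adjusted p = 0.0066) and Fam211b by 1.16 ± 0.38 (interval -1.98 to -0.34, adjusted p = 0.029). Without SIINFEKL replicate 2 both lost their call, at -0.45 (adjusted p = 0.086) and -0.59 (adjusted p = 0.31), and Fam211b also lost it without TER119-SIINFEKL replicate 2 (-0.74, adjusted p = 0.093). The Fam211b levels compared were low, 0.664 and 1.45 RPKM after SIINFEKL and 0.248 to 0.623 after TER119-SIINFEKL. No counting precision can be given for such values. Igfbp4 differed by -1.08 ± 0.41 (interval -1.96 to -0.20, adjusted p = 0.052), not past the threshold, and by -0.48 (adjusted p = 0.094) without TER119-SIINFEKL replicate 2. It was called under 5 of 27 alternatives. Dapl1 differed by -0.32 ± 0.20 (adjusted p = 0.21), and with the length and GC correction by -0.84 (adjusted p = 0.00072).

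The free peptide differed from soluble ovalbumin in 3 of the 7, where 42.2% of all genes were called. Igfbp4 was 3.49-fold lower (log2 -1.80 ± 0.41, interval -2.68 to -0.93, adjusted p = 0.0033), and the call stood without either SIINFEKL library (-1.62 and -1.99). Dapl1 rose by 0.82 ± 0.20 (interval 0.40 to 1.24, adjusted p = 0.0045) and lost the call without SIINFEKL replicate 1 (0.59, adjusted p = 0.067). Actn1 rose by 0.60 ± 0.18 (interval 0.20 to 0.99, adjusted p = 0.019), but not past the threshold without SIINFEKL replicate 2 (0.38, adjusted p = 0.19) or without OVA replicate 1 (0.47, adjusted p = 0.066). Fam211b differed by -0.98 ± 0.38 (adjusted p = 0.053), by -0.42 (adjusted p = 0.46) without SIINFEKL replicate 1 and by -1.54 (adjusted p = 0.011) without SIINFEKL replicate 2. It was called under 6 of 26 alternatives.

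**Figure D3:**
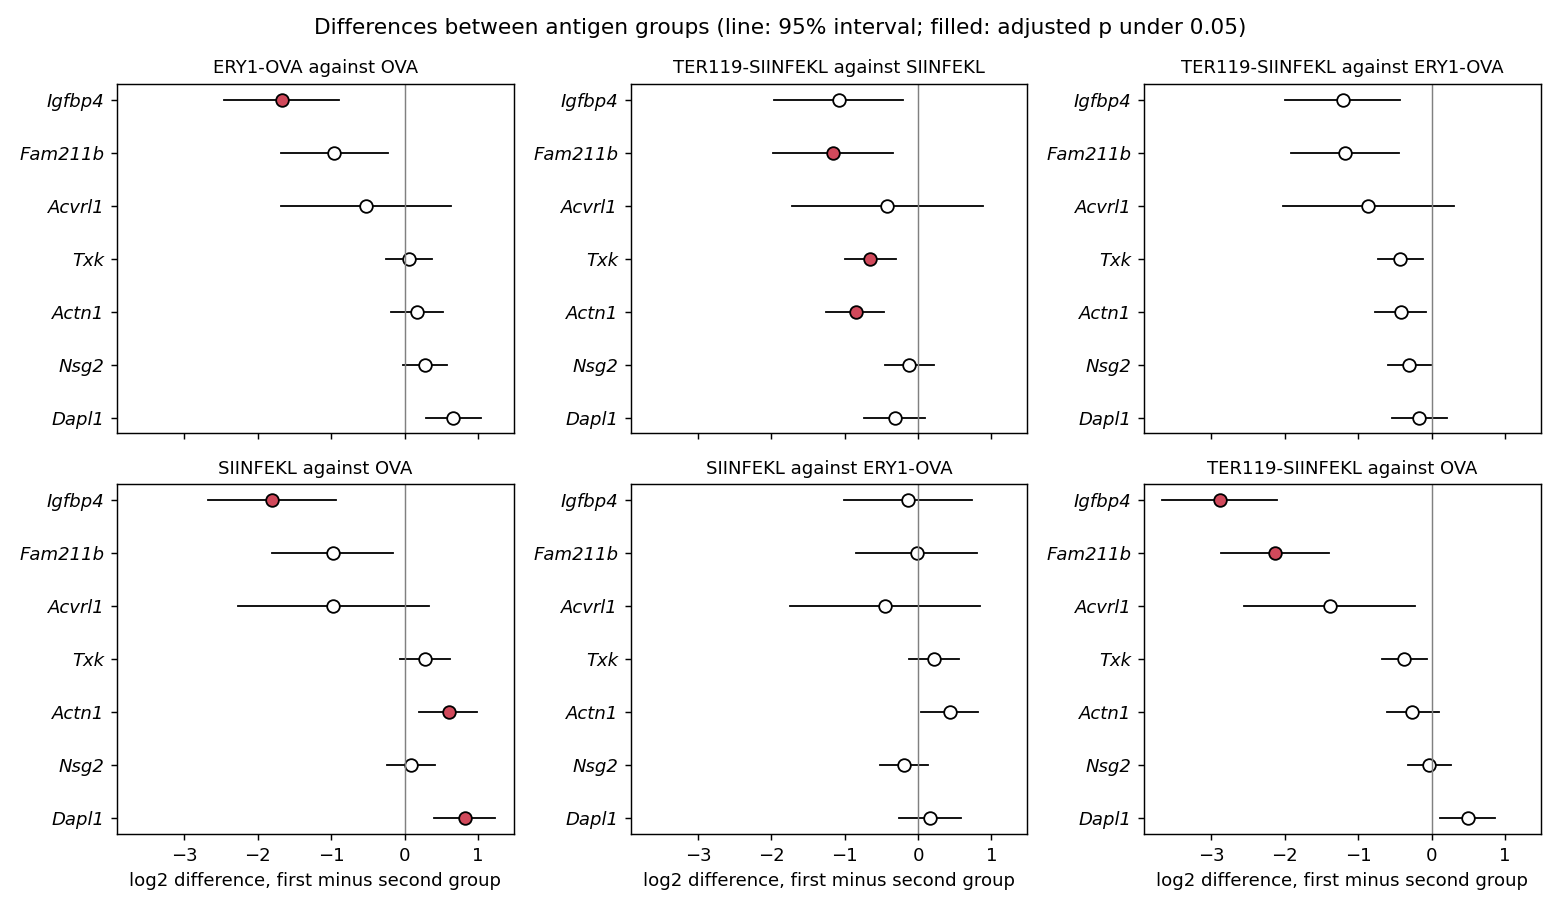
Log2 difference between antigen groups (horizontal axes, first minus second group, with 95% intervals) for the 7 genes in the 6 pairs; filled points have an adjusted p under 0.05. Igfbp4 is filled in 3 pairs, and its TER119-SIINFEKL against OVA interval runs from -3.67 to -2.10.

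TER119-SIINFEKL against OVA, the ends of the order for Igfbp4, called 2 of the 7 and 1.51% of all genes. Igfbp4 fell by 2.88 ± 0.36 on the log2 scale, a 7.38-fold lower level (interval -3.67 to -2.10, adjusted p = 0.0018), and the call held under all 27 alternatives. Without TER119-SIINFEKL replicate 2 the difference was -2.28, or 4.86-fold. Fam211b fell by 2.14 ± 0.34 (interval -2.87 to -1.40, adjusted p = 0.0077), and only leaving out OVA replicate 1 and TER119-SIINFEKL replicate 1 together ended that call (-2.16, adjusted p = 0.071). The TER119-SIINFEKL libraries held 0.248 to 0.623 RPKM of Fam211b, for which no counting precision can be given. Acvrl1 was at -1.39 ± 0.54 (interval -2.56 to -0.23, adjusted p = 0.31). Its mean was under 1 RPKM in both groups, so nothing is read from that p.

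In the other 2 pairs none of the 7 was called. Between SIINFEKL and ERY1-OVA limma called 0 of the 7, against 20.2% of all genes, and 1 of the 7 at an unadjusted p under 0.05. There Igfbp4 differed by -0.13 ± 0.41 (interval -1.01 to 0.74) and Fam211b by -0.02 ± 0.38 (interval -0.84 to 0.80). The Igfbp4 interval still allows a level near 2-fold lower, or a smaller difference upward. Actn1, at 0.43 ± 0.18, had an interval of 0.04 to 0.82 and an adjusted p of 0.11. Between the targeted forms, TER119-SIINFEKL and ERY1-OVA, limma called 0 of the 7 and 0.562% of all genes, with 5 of the 7 at an unadjusted p under 0.05. All 7 means were lower after TER119-SIINFEKL, from -0.17 ± 0.17 for Dapl1 to -1.21 ± 0.36 for Igfbp4 (adjusted p = 0.19), which was -0.61 (adjusted p = 0.30) without TER119-SIINFEKL replicate 2.

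The effect of erythrocyte targeting differed between peptide and protein for 3 of the 7, a count near the share of all genes that differed, 37.7%. The difference, peptide minus protein, was -1.02 ± 0.25 for Actn1 (log2, SE, interval -1.55 to -0.49, adjusted p = 0.006) and held under all 27 alternatives. It was -0.99 ± 0.26 for Dapl1 (interval -1.55 to -0.42, adjusted p = 0.01) and -0.71 ± 0.21 for Txk (interval -1.17 to -0.25, adjusted p = 0.019). Dapl1 lost the call without SIINFEKL replicate 1 (-0.75, adjusted p = 0.056), and Txk without SIINFEKL replicate 2 (-0.51, adjusted p = 0.10) or with the length and GC correction (-0.52, adjusted p = 0.14). For Igfbp4 it was 0.59 ± 0.55 (interval -0.59 to 1.77, adjusted p = 0.42): targeting went with lower means for both forms. Without TER119-SIINFEKL replicate 2 that difference was 1.19 (adjusted p = 0.0053), past the threshold, so the call for Igfbp4 turns on 1 library.

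**Figure D4:**
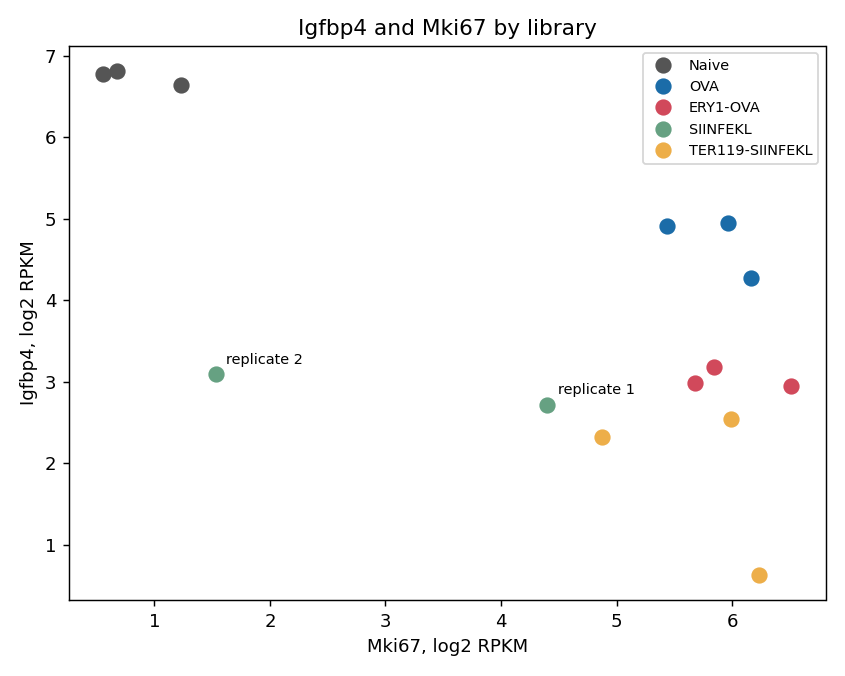
Igfbp4 (vertical axis) against Mki67 (horizontal axis), both log2 RPKM, in the 14 libraries coloured by group. SIINFEKL replicate 2 lies near Naive in Mki67 (2.89 RPKM) and near the other antigen libraries in Igfbp4 (8.52 RPKM).

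The 2 SIINFEKL libraries placed the genes differently beside Mki67. In replicate 2, whose Mki67 was close to Naive, Igfbp4 (8.52 RPKM) was at the level of ERY1-OVA, and Fam211b (1.45 RPKM) and Acvrl1 (0.842 RPKM) were below all Naive libraries. In that library Actn1 (205 RPKM) lay just above and Nsg2 (199 RPKM) within the Naive range, and Txk (39.6 RPKM) was the nearest of the antigen libraries to it. In replicate 1, with 21.2 RPKM of Mki67, Igfbp4, Fam211b, Acvrl1, Txk, Actn1 and Nsg2 were all lower than in replicate 2. With 2 libraries no spread can be given to that difference, and its cause was not tested.

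Across the 14 libraries Igfbp4 and Fam211b had a Pearson r of 0.98, and 0.96 over the 11 antigen libraries alone. Acvrl1 went with Fam211b at 0.92, and 0.75 over the antigen libraries. Actn1 and Txk had 0.76 (0.60 over the antigen libraries), while Dapl1 and Igfbp4 had -0.73 (-0.45). These coefficients are descriptions; the libraries share group, scaling and length effects. By the same measure over 14 libraries, the genes most like Igfbp4 and Fam211b were Itgae (0.97 and 0.982), Prrt1 (0.969 and 0.981) and Plekha6 (0.968 and 0.979). Itgae, the integrin chain CD103 of naive and tissue-resident CD8+ cells, had 50.1 ± 4.88 RPKM (SD, n = 3) in Naive and 4.58 ± 2.33 after TER119-SIINFEKL. Nearest to Acvrl1 were Slc25a23 (0.969), Ifngr2 (0.966) and Itgae (0.958), and nearest to Dapl1 were Pold4 (0.942), Mnda (0.924) and Ifi205 (0.924). Actn1 was closest to Ampd3 (0.97), Atp11b (0.969) and Abr (0.964), Txk to Gm12185 (0.968), Fam46a (0.966) and Tlr7 (0.965), and Nsg2 to Nck2 (0.845), Tmem43 (0.837) and Bbs9 (0.837). For the mean of the 7 scaled profiles the closest gene was Chst10 (0.975), followed by Tdrp (0.961), 5730508B09Rik (0.959), Hid1 (0.959), Mgat4a (0.954), Pde4d (0.954), 2410066E13Rik (0.953), Gpr146 (0.95), Cd247 (0.95) and Fam46a (0.944). The most opposite were Slc29a1 (-0.931), Lgalsl (-0.926) and Litaf (-0.92).

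Relatives of the 7 genes were listed by family, with earlier results of these data known. Of the 24 listed, 7 had values and were tested. After OVA 5 fell and 1 rose, after ERY1-OVA 5 fell, after SIINFEKL 3 fell and after TER119-SIINFEKL 5 fell, with medians of -0.74, -0.51, -0.45 and -0.82 against -0.04, -0.01, -0.01 and 0.00 over all genes. Among all genes 23.1%, 19.0%, 8.34% and 23.0% fell and 24.4%, 20.9%, 7.58% and 24.6% rose in that order of groups. Without SIINFEKL replicate 1 the SIINFEKL count was 1. Both measured receptors related to Acvrl1 fell: the activin receptor Acvr1b by 1.45 ± 0.17 (log2, SE, adjusted p = 1.9e-05 in limma) and the TGF-beta receptor Tgfbr1 by 0.82 ± 0.13 (adjusted p = 0.00024) after TER119-SIINFEKL. The kinase Tec, a relative of Txk, fell by 0.76 ± 0.17 (adjusted p = 0.0023) there, beside -1.06 for Txk.

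The actinins did not move as one. Actn2, an actinin known from muscle, was at 7.59 to 9.30 RPKM in Naive and 1.24 to 2.25 after TER119-SIINFEKL, and fell by 2.43 ± 0.32 (log2, SE, adjusted p = 4e-05 in limma). It fell in the other 3 groups too, by 1.65 to 2.48. Actn4, the other nonmuscle actinin, rose after OVA (0.56 ± 0.15, adjusted p = 0.0093, a call lost under quantile normalization) and gave 0.29, -0.17 and 0.36 after ERY1-OVA, SIINFEKL and TER119-SIINFEKL, none past the threshold. Dap, the relative of Dapl1, differed from Naive by -0.15 to 0.17 and passed in none of the 4 groups. No relative of Igfbp4, Fam211b or Nsg2 in the list had values.

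**Figure D5:**
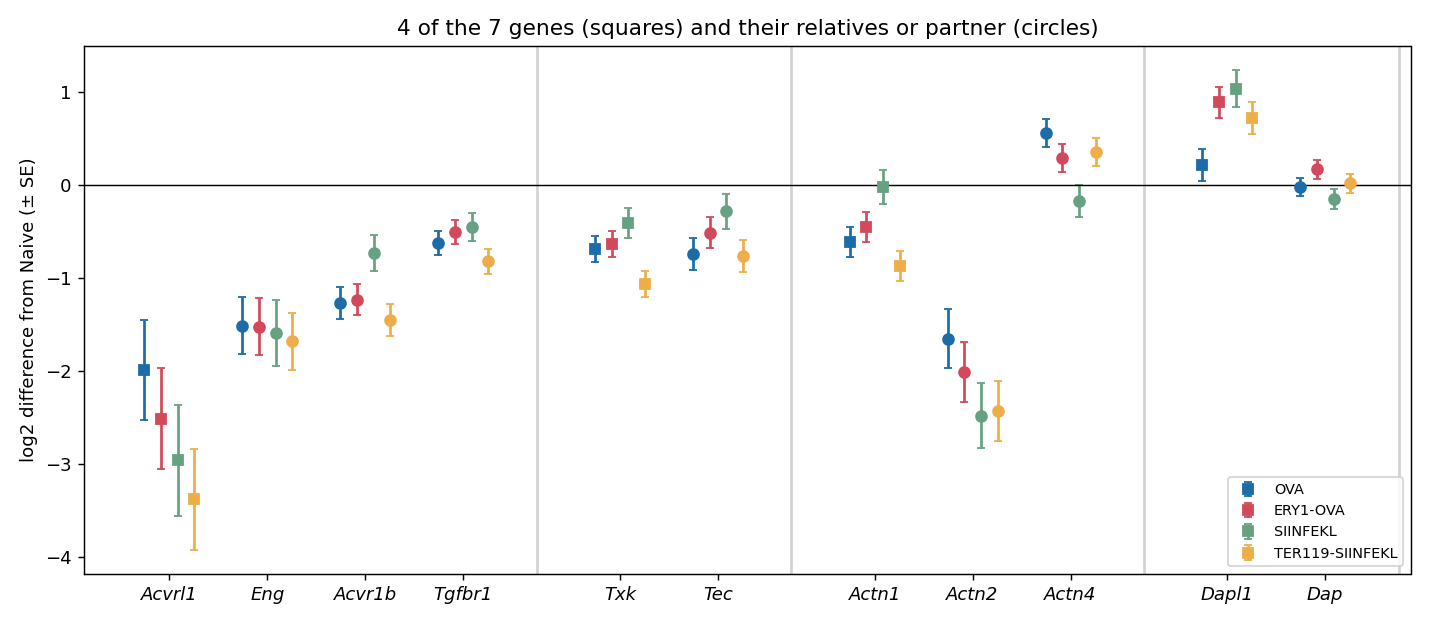
Log2 difference from Naive (vertical axis, with SE) after each antigen for Acvrl1, Txk, Actn1 and Dapl1 (squares) and for relatives or the partner Eng (circles). Eng, Acvr1b, Tgfbr1, Tec and Actn2 lie below 0 in all 4 groups, while Actn4 and Dap lie on either side of it; the Dapl1 value after OVA changes sign with a length and GC correction.

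The TGF-beta and BMP list, the pathway of Acvrl1, had 21 of 36 genes with values, of which 19 passed the filter. After OVA 13 fell and 1 rose, after ERY1-OVA 14 and 1, after SIINFEKL 7 and 1, and after TER119-SIINFEKL 15 and 1, with medians of -0.79, -0.91, -0.49 and -1.13. The medians over all genes were -0.04, -0.01, -0.01 and 0.00. Among all genes 23.1%, 19.0%, 8.34% and 23.0% fell and 24.4%, 20.9%, 7.58% and 24.6% rose in that order of groups. The SIINFEKL count of falls was 1 without replicate 1 of that group and 13 without replicate 2. The inhibitory Smad7 fell by 2.41 ± 0.19 after TER119-SIINFEKL (adjusted p = 9e-07), the BMP signal carrier Smad5 by 1.47 ± 0.14 (adjusted p = 2.8e-06), the repressor Ski by 1.52 ± 0.17 (adjusted p = 9.8e-06) and the ubiquitin ligase Smurf2 by 1.13 ± 0.12 (adjusted p = 5.8e-06). Id3, a target gene of BMP signalling that is also induced through the T cell receptor, was the 1 that rose, by 1.42 ± 0.25 (adjusted p = 0.00042) there. Activators and inhibitors of the pathway were thus both among the genes that fell.

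Endoglin (Eng), the partner receptor of ALK1, was named after its values were seen. It was at 13.6, 12.1 and 7.76 RPKM in Naive, 5.11, 3.97 and 2.72 after OVA, and 4.55, 4.52 and 2.60 after ERY1-OVA. SIINFEKL libraries held 3.29 and 3.92 RPKM and TER119-SIINFEKL 5.04, 2.82 and 2.71. No antigen library reached a Naive one. It fell by 1.51 ± 0.31, 1.52 ± 0.31, 1.59 ± 0.35 and 1.68 ± 0.31 (log2, SE) after OVA, ERY1-OVA, SIINFEKL and TER119-SIINFEKL, with adjusted p in limma of 0.0015, 0.0017, 0.009 and 0.00065. Both Acvrl1 and Eng are endothelial genes in other tissues. Of 12 endothelial markers 2, Pecam1 and Eng, had values, and Pecam1, which T cells also express, was at 20.9 to 65.7 RPKM; the part of such cells in the Acvrl1 level was not tested.

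The insulin-like growth factor list had 9 of 25 genes with values, and none of them was another binding protein. After OVA 4 fell and 1 rose, after ERY1-OVA 4 and 0, after SIINFEKL 0 and 0, and after TER119-SIINFEKL 3 and 1. In that order 23.1%, 19.0%, 8.34% and 23.0% of all genes fell and 24.4%, 20.9%, 7.58% and 24.6% rose. The insulin receptor Insr fell by 1.51 ± 0.17 (adjusted p = 1.6e-05), the adaptor Irs2 by 2.42 ± 0.46 (adjusted p = 0.00089) and the PI3-kinase subunit Pik3r1 by 1.02 ± 0.15 (adjusted p = 8.9e-05) after TER119-SIINFEKL. Igf1r, the receptor for the factors that Igfbp4 binds, was named after its values were seen. It fell after OVA (-1.52 ± 0.34, adjusted p = 0.003) and ERY1-OVA (-1.19 ± 0.34, adjusted p = 0.015) and gave -0.62 ± 0.39 and -0.78 ± 0.34 after SIINFEKL and TER119-SIINFEKL. The kinase Akt1 was the 1 that rose after OVA, by 0.67 ± 0.13 (adjusted p = 0.0012).

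In the actin and integrin list, where Actn1 acts, more genes rose than fell in each group in the main fit. Of 24 tested, 9 rose and 3 fell after OVA, 8 and 1 after ERY1-OVA, 5 and 2 after SIINFEKL, and 9 and 4 after TER119-SIINFEKL. The medians of the list were 0.15, 0.22, 0.07 and 0.24, against -0.04, -0.01, -0.01 and 0.00 over all genes. Among all genes 24.4%, 20.9%, 7.58% and 24.6% rose and 23.1%, 19.0%, 8.34% and 23.0% fell. After OVA the balance turned under quantile normalization, with 3 rises and 4 falls, and after SIINFEKL without its replicate 1, with 0 rises and 1 fall. Quantile normalization also narrowed the balance to 6 rises and 5 falls after ERY1-OVA, and to 6 and 5 after TER119-SIINFEKL. A fit of only the groups compared gave 1 rise and 1 fall after SIINFEKL. Itgb1, the integrin beta chain of VLA receptors, rose by 2.13 ± 0.21 after OVA (adjusted p = 3.5e-06) and 1.75 ± 0.21 after TER119-SIINFEKL (adjusted p = 1.8e-05), while Actn1 was lower in both. The adhesion-linked Rsu1 and Pdlim2 rose by 0.50 ± 0.09 (adjusted p = 0.00069) and 0.55 ± 0.09 (adjusted p = 0.00035) after TER119-SIINFEKL.

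In the list of Tec kinases and T cell receptor signalling, where Txk acts, genes passed in both directions. Of 21 tested, 6 fell and 1 rose after OVA, 4 and 2 after ERY1-OVA, 2 and 1 after SIINFEKL, and 6 and 4 after TER119-SIINFEKL, with medians of -0.15, 0.00, 0.09 and -0.16. Over all genes, 23.1%, 19.0%, 8.34% and 23.0% fell and 24.4%, 20.9%, 7.58% and 24.6% rose in those groups. Under quantile normalization the falls were 12, 7 and 10 after OVA, ERY1-OVA and TER119-SIINFEKL. The adaptors Pag1 and Grap2 fell by 1.37 ± 0.15 (adjusted p = 8.1e-06) and 0.83 ± 0.10 (adjusted p = 1.8e-05) after TER119-SIINFEKL, and Sh2d2a, an adaptor induced on activation, rose by 0.72 ± 0.12 (adjusted p = 0.00035).

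In the wider list of naive and quiescence genes more fell than rose in each group. Of 38 tested, 25 fell and 3 rose after OVA, 18 and 6 after ERY1-OVA, 11 and 4 after SIINFEKL, and 25 and 3 after TER119-SIINFEKL, with medians of -0.68, -0.44, -0.13 and -0.83. The medians over all genes were -0.04, -0.01, -0.01 and 0.00. Among all genes 23.1%, 19.0%, 8.34% and 23.0% fell and 24.4%, 20.9%, 7.58% and 24.6% rose in that order of groups. The SIINFEKL falls were 6 without replicate 1. The interleukin-7 receptor gene Il7r fell by 3.52 ± 0.21 (adjusted p = 1.8e-07) after TER119-SIINFEKL, the egress receptor gene S1pr1 by 1.64 ± 0.11 (adjusted p = 3.3e-07), and the quiescence factors Klf2 by 1.92 ± 0.14 (adjusted p = 5.6e-07) and Klf3 by 1.52 ± 0.12 (adjusted p = 6.3e-07). Those that rose after TER119-SIINFEKL were Tspan32 (1.58 ± 0.15), Id3 (1.42 ± 0.25) and Cd27 (0.76 ± 0.10). The difference of Igfbp4 from Naive there was -4.91. Since Igfbp4 was chosen for the size of its fall, nothing is read from its place beside these genes.

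Genes listed as markers of other cells also moved between groups. Whether their RNA came from such cells or from the OT-I cells themselves was not tested. The summed level of the 2 B cell markers with values, Cd22 and Cd79b, was 8.49 to 10.3 RPKM in Naive and 23.8 to 27.5 after TER119-SIINFEKL, with 6 of 8 without values. The 5 dendritic cell markers with values summed to 13.5 to 28.9 RPKM in Naive, up to 71.5 after OVA and up to 36.6 after TER119-SIINFEKL. The 2 globin genes summed to 7.54 to 10.9 RPKM in Naive, 1.53 to 2.27 after SIINFEKL and 1.55 to 20.3 after TER119-SIINFEKL. The platelet, neutrophil and stromal fibroblast lists had no gene with values. NK cell markers summed to 48.4 to 66.7 RPKM in Naive and 33.4 to 79.8 after antigen, and CD4 T cell markers to 1.02 to 10.9 over all libraries. Monocyte markers summed to 381 to 648 in Naive and 132 to 489 after antigen. That sum was mostly Ly6c2, at 113 to 625 RPKM over all libraries, while Cd68, Itgam and Lyz2 reached at most 10.3, 20.5 and 11.5. Zbtb7b reached 9.93 RPKM and Cd4 1.31. Cd22 ran from 0.317 to 12.4 RPKM and Cd79b from 8.09 to 17.6. Of the NK cell markers Eomes reached 50.2 RPKM, Klrk1 35.3, Klrb1c 14.7 and Klra8 2.66. The part of other cells in the levels of the 7 genes was not tested.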

How the data were processed

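Libraries were stranded and made from polyadenylated RNA, per the labels' protocols. The authors deposited 1 table of normalized values, used here as log2 RPKM. Per the submitters' processing notes, the tools were STAR 2.4.2, bcl2fastq 2.17.1.14 and edgeR, on GRCm38 (also called mm10), with no roles stated, and the counting, gene lengths and scaling are not given in the sources used here. Values below 0 made up 4.3%, and the base of the logarithm was inferred: RPKM times exon kilobases summed to 1764368 to 2042896 per library as base 2 and 22638320 to 37606456 as base e. Depth is unknown, so no counting interval was given. Since the values were already logarithms, no pseudocount was added.

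Columns were matched to libraries by the labels' descriptions. Of 10106 genes, 313 with a mean RPKM under 1 were left out. In R 4.3.3, 5 group means were fitted over all 14 libraries with limma 3.58.1 and a trend of variance on level (residual degrees of freedom 9, prior 4.6), two-sided, with Benjamini-Hochberg adjustment over 9793 genes and calls at adjusted p under 0.05. The procedure was tested on simulated data. Positions are from GENCODE for GRCm38 (10039 genes matched).

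The 7 genes and the gene lists were chosen with earlier results of these data known. Named genes are the 7, the 3 most alike of each, the 10 most and 3 least alike to their mean, measured relatives (1 is not reported here by name), up to 4 genes of each other list with the smallest adjusted p over the 4 differences from Naive, and markers. Alternatives were quantile and median-of-ratios scaling, added RPKM of 0.1 or 1, no filter or a filter at 3, array weights, robust moderation, no trend, the replicate block, only the groups compared, a length and GC correction (9716 genes), OVA replicate 1 with TER119-SIINFEKL replicate 1 left out, and each library left out. Tables and figures used pandas 2.3.3, numpy 2.4.6 and matplotlib 3.10.9 under Python 3.11.15.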

Additional observations from a re-analysis of the deposited data

Results flagged for a closer look

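For 3 of the 7 genes the effect of joining antigen to erythrocytes differed between peptide and protein in limma's test of that difference (log2, peptide minus protein). It was -1.02 for Actn1, -0.99 for Dapl1 and -0.71 for Txk. In Actn1 the peptide effect was -0.85 and the protein effect 0.17, in Dapl1 they were -0.32 and 0.66, and in Txk -0.65 and 0.06. Across all genes 37.7% passed the same test, so 3 of 7 is near that share and nothing is read from the count. The free peptide group has 2 libraries that differ in Mki67 (21.2 and 2.89 RPKM). The difference was -0.75 for Dapl1 without SIINFEKL replicate 1 and -0.51 for Txk without SIINFEKL replicate 2.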

How the results depend on the processing

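Over 27 alternatives, 3542 values of 132 results were compared. Of these, 3308 kept their side of the threshold or moved little, 169 moved, 35 became called, 30 lost their call and none of those called reversed. The 3308 include values that changed sign but were called in neither fit. Acvrl1 in TER119-SIINFEKL against SIINFEKL, for example, ran from -1.42 to 0.58. The count of the 7 genes called for ERY1-OVA against OVA, 1 as reported, was 0 with no trend, 0 with the replicate block, 0 without OVA replicate 1 and TER119-SIINFEKL replicate 1, 2 with array weights and 2 with the length and GC correction. For TER119-SIINFEKL against SIINFEKL, 3 as reported, it was 1 in a fit of only the groups compared. For TER119-SIINFEKL against ERY1-OVA, 0 as reported, it was 4 with array weights. For SIINFEKL against ERY1-OVA, 0 as reported, it was 1 under quantile normalization and again 1 after the length and GC correction. For TER119-SIINFEKL against OVA, 2 as reported, it was 1 with a filter at a mean RPKM of 3, which drops Fam211b and Acvrl1, 6 with array weights and 1 without OVA replicate 1 and TER119-SIINFEKL replicate 1. Where no cause is named, the cause was not tested. Leaving out 1 library at a time gave 0 to 2 for ERY1-OVA against OVA, 1 to 4 for TER119-SIINFEKL against SIINFEKL, 0 to 0 for TER119-SIINFEKL against ERY1-OVA, 2 to 4 for SIINFEKL against OVA, 0 to 1 for SIINFEKL against ERY1-OVA, 2 to 2 for TER119-SIINFEKL against OVA and 2 to 4 for the difference between peptide and protein. A lone SIINFEKL library was taken to have the spread of the other groups.

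Replicate numbers were not used as pairs in the main fit. Deviations of same-numbered libraries had a median r of 0.13 (-0.44 to 0.67) over 26 pairs, 14 of them over 0.1. Those of differently numbered libraries had a median r of -0.09 (-0.54 to 0.57), and 6 of 14 libraries correlated best with their own number. Whether the numbers mark a shared batch was not tested. With the replicate block, Igfbp4 in ERY1-OVA against OVA had an adjusted p of 0.063 (limma). The length and GC correction shifted the median of all genes to -0.12 for OVA against Naive and 0.11 for SIINFEKL against OVA. Depth is unknown, so no counting precision can be given for values under 1 RPKM, as in Acvrl1 and Fam211b after antigen.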
